A study of Homo sapiens with 6 samples.

Results

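The genes described here are 10 components of interleukin-6 family signalling: the cytokine genes IL11, IL6, LIF and CLCF1, the receptor genes IL6R, LIFR, OSMR and IL6ST, the transcription factor gene STAT3 and the feedback inhibitor gene SOCS3. They were chosen by gene symbol from the 22701 genes of the deposited table. All 10 were found, and 9 of them had a mean of at least 1 FPKM (fragments per kilobase of gene, scaled by the library total) and were tested, with 10695 genes tested in all. The samples were 6 polyadenylated RNA libraries of LX-2, an established human hepatic stellate cell line. Cells of the control group (3 libraries) received TGF-β, with 5 µg/mL as the labelled dose, and those of the LIG group (3 libraries) received the same TGF-β together with 20 µM ligustilide (LIG), a phthalide of Angelica and Ligusticum roots. All 6 libraries thus carried TGF-β, and the effect of TGF-β on these genes was not measured. TGF-β doses are usually given in ng/mL, and the labelled unit was taken as written. The labels name no treatment time and no separate cultures, so the p-values reflect only how much these libraries vary, which may be technical. In such bulk RNA, fewer cells of a type and less RNA per cell cannot be told apart.

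Interleukin-6 family cytokines signal through receptor complexes that share the chain gp130, the product of IL6ST. Interleukin-6 and interleukin-11 first bind their own receptors (IL6R, IL11RA), LIF pairs gp130 with LIFR, and oncostatin M pairs it with OSMR or LIFR. Janus kinases bound to these chains phosphorylate STAT3, which induces SOCS3, an inhibitor that binds gp130 and closes the loop. TGF-β induces IL11 in fibroblasts and stellate cells, and interleukin-11 is studied as an autocrine signal of these cells in liver fibrosis.

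The bases before the starts of IL11, the most abundant of the 10 transcripts, and IL6, the name-giving cytokine, are shown because the levels of these genes differed most within the cytokine group. RefSeq windows of 250 bases (GRCh38.p14), ending just before a RefSeq start, were at hand for 8 of the 10 genes, all but LIF and CLCF1. These starts can differ from the gene positions printed below, which are from GENCODE. Only the IL11 window adjoins its GENCODE gene. The IL6 and LIFR windows and the SOCS3 window from 78359668 to 78359917 lie inside their genes. The IL6R, IL6ST, OSMR and STAT3 windows span the GENCODE start, and so are partly inside the gene. All windows were searched on both strands for 4 motifs. These were AP-1 (TGANTCA), STAT (TTCNNNGAA), the antioxidant response element bound by NRF2 (TGACNNNGC) and NF-kB (GGG and TTTCC with any 2 bases between them). No motif matches overlapped each other, and capitals mark the matches.
IL11, chr19:55370464-55370713, minus strand: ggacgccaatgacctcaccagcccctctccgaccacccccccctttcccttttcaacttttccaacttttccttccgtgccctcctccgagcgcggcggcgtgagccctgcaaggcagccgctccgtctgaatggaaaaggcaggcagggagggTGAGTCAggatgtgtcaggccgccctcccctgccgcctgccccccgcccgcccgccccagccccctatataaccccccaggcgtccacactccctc
IL6, chr7:22726950-22727199, plus strand: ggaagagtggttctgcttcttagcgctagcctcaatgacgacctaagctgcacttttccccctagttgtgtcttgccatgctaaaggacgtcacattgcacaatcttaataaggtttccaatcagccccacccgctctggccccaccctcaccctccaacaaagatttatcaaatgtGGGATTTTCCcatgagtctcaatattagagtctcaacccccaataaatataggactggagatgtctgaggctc
The IL11 window held 1 AP-1 match, TGAGTCA, from 96 to 90 bases before the start. Such a match was present in 6.57% of 35116 windows of the same length. The IL6 window held 1 NF-kB match, GGGATTTTCC, from 73 to 64 bases before the start, a motif found in 1.73% of windows. A STAT match (6.57% of windows) was present in 2 of the 3 LIFR windows, TTCATCGAA and TTCCTTGAA. No match was found in the windows of SOCS3, STAT3, IL6ST, IL6R and OSMR. The SOCS3 windows (78359668 to 78359917 and 78360926 to 78361175) do not adjoin the start of the GENCODE gene (78360077, minus strand). The bases just before that SOCS3 start were thus not searched. The antioxidant response element (10.9% of windows) was matched in none of these genes' windows. A match is a string of letters and not evidence of binding.

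The libraries held between 38401783 and 39260090 fragments in total, as recovered from the steps of the deposited values. TGF-β replicate 2 and LIG replicate 3 stood apart on the first principal component (55.1% of the variance). They differed from the other libraries by gene length: with the tested genes split into 5 length groups, in the shortest (111 to 2151 bases), LIG replicate 3 lay a median of 0.27 above the other 2 LIG libraries on the log2(FPKM + 1) scale, and in the longest (7129 to 42081 bases) 0.21 below them. For TGF-β replicate 2 against the other 2 TGF-β libraries these medians were 0.17 above and 0.10 below. Of 13 measured stellate cell markers, 10 were tested, with summed FPKM of 3385 to 3589 with TGF-β and 3036 to 3448 with LIG. VIM and COL1A1 were abundant (means of 1832 and 665 FPKM in the TGF-β group), ACTA2 was low (2.77 FPKM), and DES and RELN stayed under 0.02 FPKM. Of the 10, the collagen gene COL3A1 (20.3 ± 2.41 FPKM with TGF-β against 9.96 ± 1.598 FPKM, limma adjusted p = 0.0144) and the matrix protein gene SPARC (507 ± 2.89 FPKM against 368 ± 13.9 FPKM, adjusted p = 0.0435) fell with LIG, and 0 rose. Of all genes tested, 0.505% were called lower and 0.187% higher. With the length trend by which the libraries differ removed, 4 of the 10 markers were called lower (COL1A1 and PDGFRB besides) and 1 higher (TIMP1). The shares of all genes called in that fit were 1.87% lower and 0.748% higher. The part of these marker differences in the results below was not tested. Leukocyte markers summed to 13.8 to 16.1 FPKM with TGF-β and 14.9 to 16.7 FPKM with LIG. Most of this was CD68, a lysosomal gene also expressed outside leukocytes (means of 13.1 and 14.4 FPKM). The means of CSF1R were 0.83 and 0.88 FPKM, of CD14 0.54 and 0.33, of LYZ 0.23 and 0.28 and of CD79A 0.14 and 0.17. PTPRC, CD163 and MARCO stayed under 0.02 FPKM, and CLEC4F reached at most 0.054 FPKM. CD3E, at 0 in the TGF-β libraries, reached at most 0.077 FPKM with LIG.

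No gene of the family passed the test, with 0 of 9 called by limma and 0.692% of all genes called. At an unadjusted p under 0.05 there were 2, IL11 and SOCS3, against 8.41% of all genes, and limma voom on recovered fragments gave the same counts of 0 and 2 (0.720% of all genes called). Nor was any of the 9 called with pseudocounts of 0.1 or 0.5 (0.701% and 0.692% of all genes), with no filter (0.0617%), a minimum mean of 5 FPKM (0.898%), median centring (0.739%), no trend (0.673%) or robust estimation (0.589%), and IL6R, which only the fit with no filter includes, was not called there either. The count was also 0 without TGF-β replicate 1, 2 or 3 (0.196%, 0.271% and 0.103% of all genes) and without LIG replicate 1, 2 or 3 (0.206%, 0.187% and 0.870%). Library quality weights called 5, IL11, SOCS3, IL6ST, OSMR and LIFR, where 17.7% of all genes were called. IL11 and SOCS3 were also the genes whose libraries did not overlap between the groups: all 3 LIG libraries lay above all 3 TGF-β libraries, as they did for 9.07% of all genes tested. The other 7 had intervals of the log2 change that included 0. The median log2 change of the 9 was 0.07, beside 0.03 over all genes tested, and the change of each of the 9 was above 0, as it was for 60.9% of all genes tested, though for LIF and STAT3 it was within 0.005 of 0 or below 0 under another scaling between libraries.

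**Figure D1:**
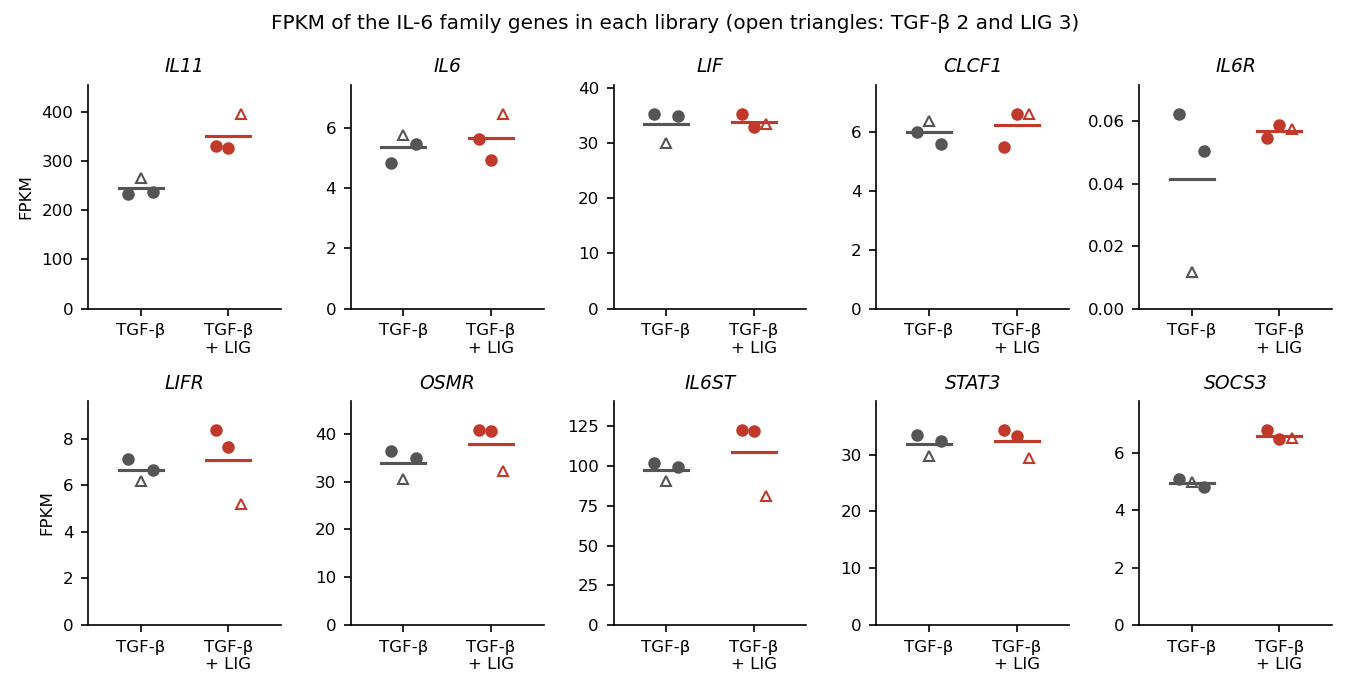
FPKM (vertical axes, each from 0) of the 10 genes in the 3 TGF-β and the 3 TGF-β + LIG libraries, with horizontal bars for group means and open triangles for TGF-β replicate 2 and LIG replicate 3. The LIG points of IL11 (327.8 to 397 FPKM) and SOCS3 (6.48 to 6.79 FPKM) sit above all TGF-β points, and in LIFR, OSMR, IL6ST and STAT3 the open triangle is the lowest point of its group.

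IL11 encodes interleukin-11, a secreted gp130 cytokine (chromosome 19, 55364389 to 55370463, GRCh38). It gave 234, 267 and 238 FPKM in the TGF-β libraries (replicates 1 to 3, in this order throughout) against 332, 328 and 397 FPKM in the LIG libraries. The lowest LIG library lay above the highest TGF-β library, and each group's highest value was in the library that stands apart. The means were 246 ± 17.6 FPKM (SD, n = 3) and 352 ± 38.9 FPKM (n = 3), a ratio of 1.43, on 21474 to 37061 fragments per library. The log2 change was 0.51 ± 0.10 (SE; 95% interval 0.28 to 0.74) and missed the threshold (limma adjusted p = 0.0928). By mean level IL11 ranked 172 of 22701 genes with TGF-β and 117 with LIG.

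The other cytokines of the list stayed far below IL11. LIF, leukaemia inhibitory factor (chromosome 22, 30240447 to 30246851), gave 35.4, 30.2 and 35.0 FPKM in the TGF-β libraries against 35.3, 32.99 and 33.6 FPKM in the LIG libraries. The LIF groups overlapped, with TGF-β replicate 2 lowest, and the log2 change was 0.02 (95% interval -0.16 to 0.20, adjusted p = 0.985). IL6 itself (chromosome 7, 22725884 to 22732002) gave 4.85, 5.79 and 5.47 FPKM in the TGF-β libraries against 5.63, 4.95 and 6.48 FPKM in the LIG libraries. Its groups interleaved too, and the log2 change was 0.07 (95% interval -0.16 to 0.30, adjusted p = 0.950). CLCF1, cardiotrophin-like cytokine factor 1 (chromosome 11, 67364168 to 67374177), acts through a receptor that includes LIFR and gp130 among its chains. It gave 6.02, 6.38 and 5.60 FPKM in the TGF-β libraries against 5.48, 6.62 and 6.63 FPKM in the LIG libraries, with the lowest library of all in the LIG group (log2 change 0.05, 95% interval -0.15 to 0.25). The upper interval bounds of LIF, IL6 and CLCF1 (0.20, 0.30 and 0.25) lay below the estimate for IL11, though the difference between genes was not tested.

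Within each library, IL11 made up most of the summed FPKM of 7 family cytokine genes: the 4 described here, CTF1, CNTF and EBI3. The share was 83.0% to 85.8% with TGF-β and 87.4% to 89.2% with LIG. The ratio of IL11 to IL6 was between 43.5 and 48.3 with TGF-β and between 58.9 and 66.2 with LIG. Both measures were separate between the groups, as IL11 itself was. As both are built on IL11, they are no independent results. CTF1, which encodes cardiotrophin-1, was at 1.43 ± 0.16 and 1.24 ± 0.25 FPKM (mean ± SD, n = 3 each, TGF-β first here and in what follows). It did not pass (limma log2 change -0.12, adjusted p = 0.847) and was the 1 gene tested of 3 other family cytokines, while CNTF and EBI3 reached at most 0.05 and 0.26 FPKM. The list of other family cytokines looked up held 6 genes, of which 3 had a row in the deposited table. No values are given here for OSM, IL27 and IL31.

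Among the receptors, the shared chain was abundant and the interleukin-6 receptor itself was close to the detection limit. IL6ST, which encodes gp130 (chromosome 5, 55935095 to 55994993), gave 102, 90.5 and 99.6 FPKM in the TGF-β libraries against 123, 122 and 81.4 FPKM in the LIG libraries. LIG replicates 1 and 2 lay above every TGF-β library and LIG replicate 3 below all of them. The log2 change was 0.13 (95% interval -0.22 to 0.48, limma adjusted p = 0.924). OSMR, the oncostatin M receptor chain (chromosome 5, 38845858 to 38945596), gave 36.4, 30.5 and 34.9 FPKM in the TGF-β libraries against 40.8, 40.5 and 32.2 FPKM in the LIG libraries. Its LIG replicates 1 and 2 were the highest values and LIG replicate 3 lay among the TGF-β values (log2 change 0.15, 95% interval -0.10 to 0.40, adjusted p = 0.818). LIFR, the LIF receptor chain (chromosome 5, 38474963 to 38608354), gave 7.14, 6.20 and 6.65 FPKM in the TGF-β libraries against 8.37, 7.64 and 5.19 FPKM in the LIG libraries. Here again LIG replicate 3 was the lowest of the 6 libraries (log2 change 0.05, 95% interval -0.28 to 0.39, adjusted p = 0.979).

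The libraries that stand apart lay low in the long receptor genes and high in 3 of the 4 cytokine genes. The gene length behind the FPKM was 9073 bases for IL6ST, 11336 for LIFR, 6896 for OSMR and 5092 for STAT3. LIG replicate 3 differed from the mean of the other 2 LIG libraries by -0.58, -0.54, -0.33 and -0.19 in these genes on the log2(FPKM + 1) scale. In IL11 (2378 bases), IL6 (3061 bases) and CLCF1 (1836 bases) it lay above that mean, by 0.27, 0.25 and 0.12. TGF-β replicate 2 had the same signs in these 7 genes, from -0.22 in OSMR to 0.17 in IL11. LIF (4253 bases, in the middle length group) differed by -0.22 in TGF-β replicate 2 and by -0.02 in LIG replicate 3. SOCS3 (2827 bases) was within 0.03 of the mean of the other 2 libraries of the group in both. IL6ST and LIFR deviated more in LIG replicate 3 than the median of the longest length group (-0.21). So did OSMR and STAT3 against the median of their length group (-0.08), and IL11 and IL6 against theirs (0.14). CLCF1, LIF and SOCS3 lay below the medians of their length groups (0.27, 0.03 and 0.14) in that library.

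**Figure D2:**
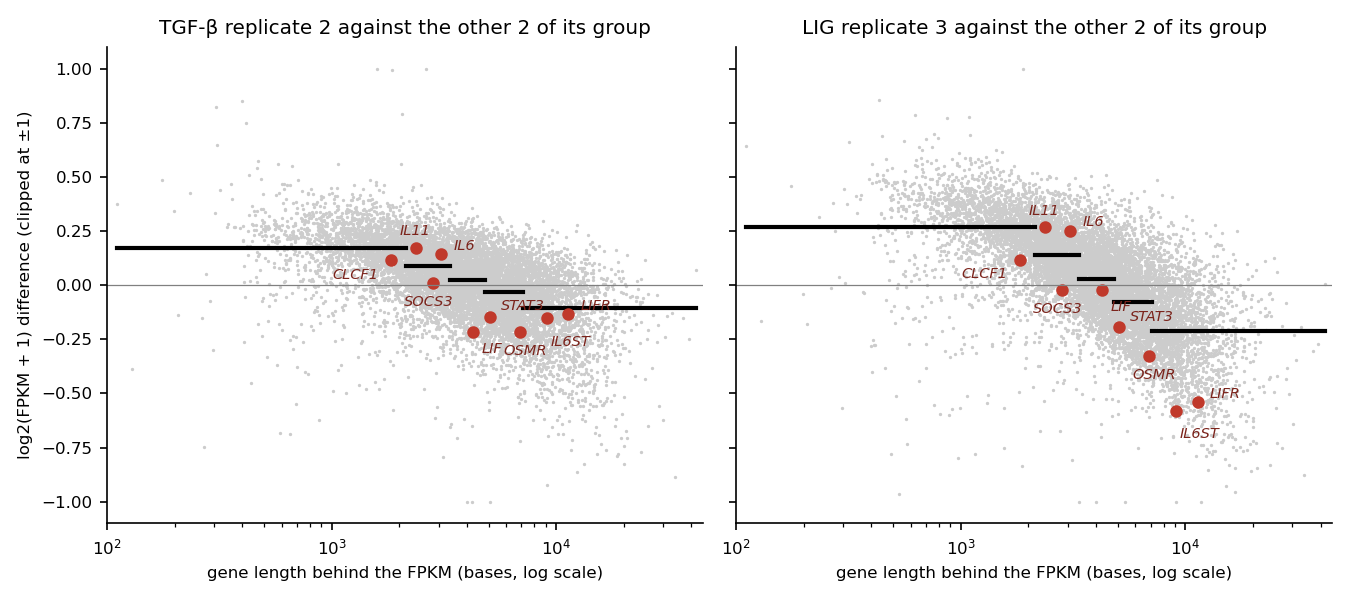
Difference in log2(FPKM + 1) between a library that stands apart and the mean of the other 2 of its group (vertical axis, clipped at ±1) against the gene length behind the FPKM (horizontal log axis), for TGF-β replicate 2 (left) and LIG replicate 3 (right). Grey points are the 10695 tested genes, black bars the medians of 5 length groups (0.27 down to -0.21 for LIG replicate 3) and red points the 9 tested family genes, with the long receptor genes low and IL11, IL6 and CLCF1 high.

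Removing this length trend from every library, an alternative added after seeing the data, brought IL11 and SOCS3 past the threshold and no other gene of the family. With the trend removed 2.62% of all genes were called (0.748% higher with LIG and 1.87% lower), or 2.60% with a wider smoothing span. The log2 change of IL11 was then 0.47 (95% interval 0.38 to 0.57, limma adjusted p = 0.000405), and each of the 6 fits without 1 library called it too (largest adjusted p 0.0057). That of SOCS3 was 0.31 (95% interval 0.16 to 0.47, adjusted p = 0.0472), and it passed in 1 of the 6 fits with a library left out, that without LIG replicate 3 (adjusted p from 0.0235 to 0.198). For IL6ST the log2 change was 0.14 (95% interval -0.07 to 0.35) and for OSMR 0.14 (95% interval -0.01 to 0.30). In the fits without TGF-β replicates 1 to 3 the share of all genes called was 1.33%, 1.89% and 1.08%, and in those without LIG replicates 1 to 3 it was 1.55%, 1.38% and 2.52%. IL6ST passed only without LIG replicate 3 among these fits (log2 change 0.27, adjusted p = 0.00849).

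With both libraries that stand apart left out, IL11, SOCS3, IL6ST and OSMR passed, 4 of 9 genes beside 4.65% of all genes. The log2 changes were 0.48, 0.36, 0.28 and 0.18 (limma adjusted p = 0.000289, 0.0133, 0.00256 and 0.0297). These 2 libraries were left out because they stand apart, which lowers the spread within groups by construction. In this fit 1.95% of all genes were called higher with LIG and 2.69% lower. IL11 also passed when FPKM was rescaled to TPM (adjusted p = 0.0122; 0.804% of all genes called) and after quantile normalization (adjusted p = 0.0035; 1.00% of all genes called). Over all alternatives its log2 change lay between 0.42 and 0.57 with adjusted p from 6.94e-05 to 0.503.

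**Figure D3:**
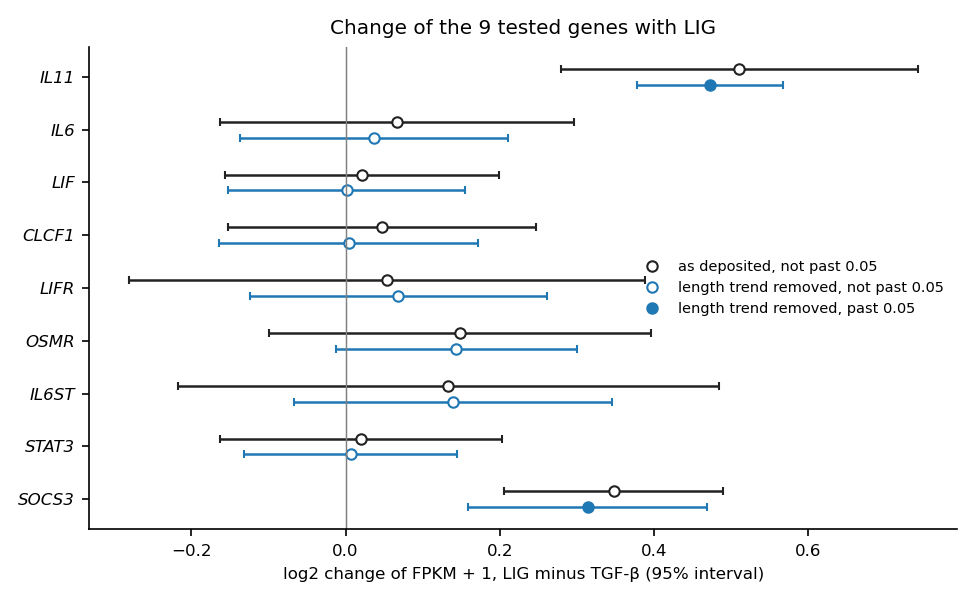
Log2 change of FPKM + 1, LIG minus TGF-β, with 95% intervals (horizontal axis) for the 9 tested genes, from the values as deposited (black) and with the length trend removed (blue); filled points passed an adjusted p of 0.05. IL11 (0.51 and 0.47) and SOCS3 (0.35 and 0.31) lie clear of 0, and the intervals of the other 7 include it.

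IL6R, the specific receptor of interleukin-6 (chromosome 1, 154405193 to 154469450), gave 0.06, 0.01 and 0.05 FPKM in the TGF-β libraries against 0.05, 0.06 and 0.06 FPKM in the LIG libraries. These values rest on 3 to 16 fragments per library and were below the level tested. IL11RA, the receptor of interleukin-11, is named here after its values were seen. It gave 1.02, 1.77 and 1.74 FPKM in the TGF-β libraries against 1.53, 1.45 and 1.95 FPKM in the LIG libraries, with overlapping groups (log2 change 0.08, adjusted p = 0.956). The transcript of the ligand IL11 was thus well above those of both specific receptors in every library.

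By mean level with TGF-β the order was IL11, IL6ST, OSMR, LIF, STAT3, LIFR, CLCF1, IL6, SOCS3 and IL6R. OSMR, LIF and STAT3 overlapped with their neighbours, and so did LIFR, CLCF1, IL6 and SOCS3. The steps from IL11 to IL6ST, from IL6ST to OSMR, from STAT3 to LIFR and from SOCS3 to IL6R exceeded the spread between libraries. With LIG, SOCS3 stood between LIFR and CLCF1, with overlap on both sides, and the order was otherwise the same.

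STAT3, the transcription factor phosphorylated downstream of gp130 (chromosome 17, 42313324 to 42388568), gave 33.5, 29.7 and 32.4 FPKM in the TGF-β libraries against 34.3, 33.3 and 29.4 FPKM in the LIG libraries. The groups overlapped throughout, and the log2 change was 0.02 (95% interval -0.16 to 0.20, limma adjusted p = 0.986). SOCS3, its target and the feedback inhibitor of gp130 (chromosome 17, 78356778 to 78360077), gave 5.09, 4.99 and 4.82 FPKM in the TGF-β libraries against 6.79, 6.48 and 6.51 FPKM in the LIG libraries. The groups were separate and each was narrow. The means were 4.97 ± 0.14 and 6.59 ± 0.17 FPKM (SD, n = 3 each), a ratio of 1.33, on 527 to 742 fragments per library. The log2 change was 0.35 ± 0.06 (SE; 95% interval 0.21 to 0.49) and did not pass (adjusted p = 0.0616). It stayed between 0.33 and 0.36 when any 1 library was left out (adjusted p from 0.0570 to 0.398).

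Other genes of the pathway were taken from lists compiled from general knowledge. Of 11 tested Janus kinase, STAT and SHP2 adaptor genes, 0 passed in either direction, beside 0.692% of all genes. At so low a share, 0 calls in a short list say little about its genes. The median log2 change of the 11 was 0.05 beside 0.03 over all genes. TYK2, a Janus kinase, was at 9.85 ± 0.71 and 11.3 ± 0.11 FPKM (limma adjusted p = 0.490). STAT5B, a related transcription factor, was at 20.5 ± 0.64 and 19.2 ± 0.86 FPKM, and the adaptor gene GRB2 at 48.4 ± 1.27 and 50.7 ± 2.55 FPKM (adjusted p = 0.793 and 0.898). Of 5 tested genes for other receptors and for proteases that shed receptors, 0 passed, against the same share of all genes. Their median log2 change was 0.08. ADAM10 and ADAM17, metalloproteases that release soluble IL6R, were at 25.7 ± 0.91 and 23.6 ± 2.33 FPKM, and at 6.81 ± 0.50 and 7.47 ± 0.69 FPKM. IL31RA, which pairs with OSMR in the interleukin-31 receptor, was at 3.75 ± 0.57 and 4.31 ± 0.70 FPKM. The receptor gene CNTFR reached at most 0.04 FPKM and was below the level tested.

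Of 10 tested negative regulators of Janus kinase and STAT signalling, which did not include SOCS3, 0 passed, beside 0.692% of all genes. Their median log2 change was 0.00. PTPRE, a receptor-type phosphatase, had a mean of 5.18 ± 0.18 FPKM in the TGF-β group against 4.27 ± 0.48 FPKM in the LIG group (limma adjusted p = 0.436). SOCS6 was at 6.26 ± 0.50 and 5.88 ± 0.37 FPKM, and PTPN2, a phosphatase of STAT proteins, at 10.9 ± 0.97 and 11.5 ± 0.81 FPKM (adjusted p = 0.899 and 0.9004). SOCS1, SOCS2 and CISH had means under or near 1 FPKM and were not tested.

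Of 18 tested STAT3 target genes, PIM1 fell, 0 rose and 17 did not pass, with a median log2 change of 0.06. PIM1 encodes a serine/threonine kinase induced by cytokines. It gave 8.83, 9.14 and 8.62 FPKM in the TGF-β libraries against 6.16, 6.09 and 6.17 FPKM in the LIG libraries. Every LIG library lay below every TGF-β library, opposite to SOCS3, which is also a STAT3 target. The log2 change was -0.47 ± 0.06 (limma adjusted p = 0.0158), against 0.505% of all genes called lower and 6.73% with every LIG library lowest. Among fits of the deposited values without 1 library the log2 change stayed between -0.48 and -0.45, and the call held only without LIG replicate 3 (largest adjusted p 0.125). It was also lost with no filter (adjusted p = 0.0508), while with the length trend removed it held in 6 of 6 fits without 1 library (adjusted p from 0.0036 to 0.0189). With that trend removed 4 of the 18 targets were called higher, beside 0.748% of all genes: CEBPB (log2 change 0.38), VEGFA (0.31), TIMP1 (0.22) and CCND1 (0.22). Of these 4, named after their values were seen, TIMP1 is also on the stellate marker list.

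Of 18 tested transcription factors known at the promoters of IL6, IL11 and LIF, FOSL1 rose, 0 fell and 17 did not pass, with a median log2 change of -0.01. FOSL1 encodes FRA-1, an AP-1 subunit. It gave 54.0, 47.9 and 53.9 FPKM in the TGF-β libraries against 76.3, 81.3 and 84.7 FPKM in the LIG libraries. Every LIG library lay above every TGF-β library, as for 9.07% of all genes tested. The log2 change was 0.63 ± 0.08 (limma adjusted p = 0.0127), where 0.187% of all genes were called higher. Leaving out the first or the third TGF-β library, or the second LIG library, ended the call (largest adjusted p 0.0766), as did having no filter (adjusted p = 0.0707), with the log2 change between 0.57 and 0.67 over all 6 fits without 1 library. With the length trend removed the call held in 6 of 6 such fits (adjusted p from 0.0060 to 0.0283). In the fit of all 6 libraries with that trend removed, CEBPB, which is on both lists, was called higher as well. That made 2 of the 18 factors, where 0.748% of all genes were called higher. The AP-1 match of the IL11 window is printed above, and binding at it was not measured.

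**Figure D4:**
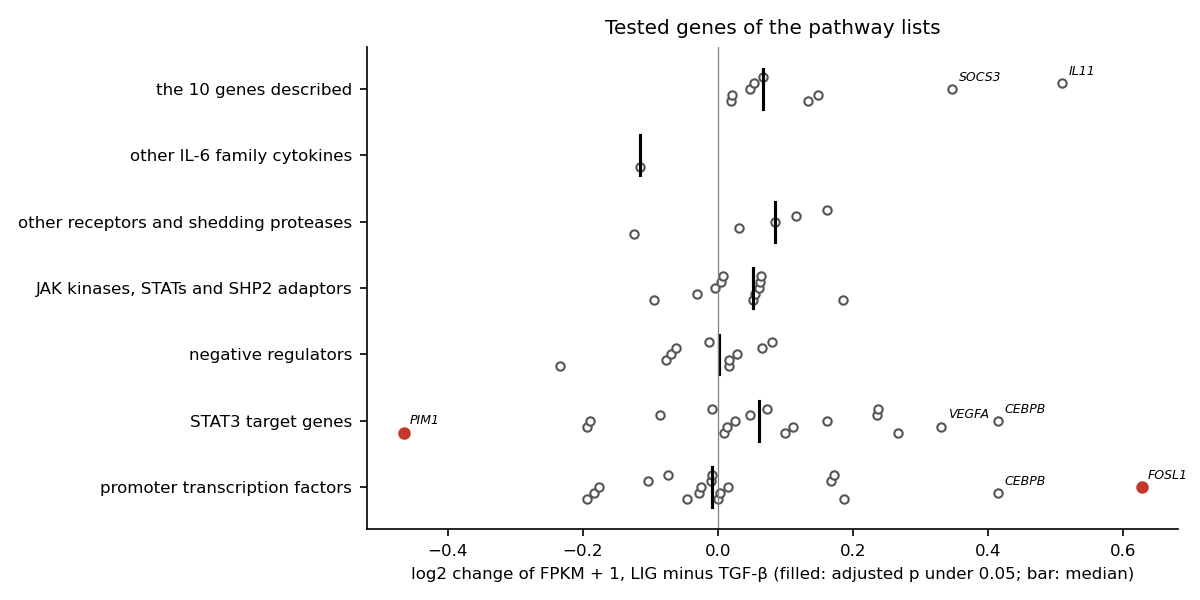
Log2 change of FPKM + 1, LIG minus TGF-β (horizontal axis), of each tested gene of the 10 described genes and of the 6 pathway lists, with a vertical bar for each list's median and filled points for an adjusted p under 0.05. The filled points are PIM1 (-0.47) and FOSL1 (0.63), and the list medians lie between -0.12 (CTF1 alone) and 0.08.

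Over the 6 libraries, the tested genes most like IL11, by Pearson correlation of log2(FPKM + 1), were FTL, MAP2K3, G0S2, SQSTM1 and SRXN1, with r from 0.9963 to 0.9996. The libraries share their group and their length trend in this measure, and it is a description only. FTL, the ferritin light chain, gave 1016, 1159 and 1028 FPKM in the TGF-β libraries against 1507, 1466 and 1832 FPKM in the LIG libraries. G0S2, an inhibitor of the lipase ATGL, gave 173, 210 and 187 FPKM in the TGF-β libraries against 280, 285 and 373 FPKM in the LIG libraries. In both, as in IL11, TGF-β replicate 2 and LIG replicate 3 were the highest of their groups. MAP2K3, a kinase upstream of p38, was at 17.1 ± 1.02 and 22.3 ± 2.01 FPKM, SQSTM1, the autophagy receptor p62, at 69.9 ± 4.97 and 97.1 ± 8.84 FPKM, and SRXN1, sulfiredoxin, at 24.8 ± 1.17 and 31.5 ± 2.17 FPKM. As these genes were chosen for their likeness to IL11 over the same libraries, whose groups are separate in IL11, no test of them is given.

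Some members share exon bases with genes on the opposite strand: OSMR with RICTOR (229 bases), IL6 with STEAP1B (46 bases), LIF with LIF-AS1 (92 bases) and LIFR with LIFR-AS1 (629 bases). Loci without a gene name overlap IL6ST by 797 bases, IL6 by 428 and LIF by 175, also on the opposite strand. CLCF1 overlaps an unnamed locus on its own strand by 61 bases. Whether counting used strand is not stated, so these fragments cannot be assigned. IL6ST and IL6R each have a processed pseudogene, IL6STP1 and IL6RP1, and their values are uncertain to that extent. No exon of another annotated gene overlapped those of IL11, IL6R, STAT3 or SOCS3.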

How the data were processed

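Polyadenylated RNA of 6 LX-2 libraries was measured, 3 per group, with groups taken from the sample titles. Per the file headers, the authors deposited FPKM, a column for each library. Named without roles in the submitters' processing notes are DESeq2, HISAT2 2.1.0, fastp and, as assembly, GRCh38.p13. The counting tool, annotation and use of strand are not given in the sources used here.

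The 10695 of 22701 genes whose mean reached 1 FPKM were tested on log2(FPKM + 1), with a pseudocount of 1, by limma 3.58.1 in R 4.3.3 (a two-sided test on group alone, with the trend of variance on mean in the empirical Bayes step and Benjamini-Hochberg over all genes tested, threshold 0.05). Fold changes on this scale understate those of low genes. Residual degrees of freedom were 4, and an exact permutation test of 3 against 3 cannot go below 0.1. Whole fragments and gene lengths were recovered from the steps of the FPKM values (100% of 114123 values above 0 whole within 0.01). They were used for depth, lengths and limma voom, and no counting interval was derived.

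The members, lists and tests were chosen with earlier results of these data known. All 10 members were named. So were called genes of each pathway list, or else its 3 genes with the smallest p, and the 5 genes most correlated with IL11. Cell type markers were named as defining or called genes. The limma fit was also run on simulated data. These had no length trend and no libraries that stand apart, so that run does not bear on either feature. Some genes of the lists are not reported here. Positions and overlaps came from GENCODE 29 (GRCh38), promoter windows from RefSeq (GRCh38.p14).

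Alternatives were pseudocounts of 0.1 and 0.5, a minimum mean of 5 FPKM or none, TPM, quantile normalization, median centring, no trend, robust estimation, library quality weights, the replicate block, voom, leaving out each library and leaving out both that stand apart. Removal of a lowess trend on gene length (span 0.3 or 0.6) was added after seeing the data.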

Additional observations from a re-analysis of the deposited data

How the results depend on the processing

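No IL-6 family gene was called by limma in the values as deposited or in 15 of 27 alternatives, and 1 was called with TPM, 1 with quantile normalization, 5 with library quality weights, 4 without both libraries that stand apart and 2 with the length trend removed (span 0.3 or 0.6). Leaving out 1 library gave 0 such genes each time, or 1 to 3 with the length trend removed. The 74 genes called in all became 14 with no filter, 1891 with library quality weights, 497 without both libraries that stand apart, 280 or 278 with the length trend removed, 11 to 93 on leaving out 1 library and 116 to 269 on leaving out 1 with the length trend removed. With quality weights IL11, SOCS3, IL6ST, OSMR and LIFR passed beside 17.7% of all genes.

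Deviations of same-numbered libraries from their group means correlated at 0.47, -0.57 and -0.34. The libraries that stand apart have different replicate numbers, and their length trend enters these values. The correlations thus cannot show whether the replicate numbers pair the libraries. With the replicate block 22 genes were called and no IL-6 family gene, and adjusted p was 0.138 for PIM1 and 0.0717 for FOSL1.

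Changes near 0 took the other sign in places, with no reversed value past the threshold. With quality weights these were IL6 at -0.053, LIF at -0.051, IL11RA at -0.083, CTF1 at 0.060 and SOCS6 at 0.028. Without both libraries that stand apart they were LIF at -0.043 and SOCS6 at 0.012. LIF was at -0.0042 and STAT3 at -0.0035 with quantile normalization, and STAT3 at -0.0011 with median centring and at -0.00017 with TPM. Over the fits that left out 1 library, with or without the length trend, the log2 change ran from -0.017 to 0.148 for IL6, from -0.077 to 0.062 for LIF, from -0.067 to 0.125 for CLCF1, from -0.065 to 0.234 for LIFR, from -0.038 to 0.084 for STAT3 and from -0.077 to 0.163 for IL11RA. The causes were not tested beyond what each alternative changes. Depth limited IL6R, with 3 to 16 fragments per library.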
